A study of Mus musculus with 32 samples.

Results

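Inhibitory interneurons were followed through 10 marker genes in the frontal cortex of mice that carried the gut microbiota of a primate. The genes are Gad1, Gad2, Slc32a1, Pvalb, Sst, Vip, Npy, Cck, Reln and Lamp5, listed by name and not chosen by a threshold on their values. All 10 were found among the 23958 genes of the count table, and all 10 passed the filter on low counts that left 12651 genes for testing. The prelimbic and infralimbic cortex was sampled from 32 mice inoculated with microbiota of humans (12 mice), squirrel monkeys (Saimiri boliviensis; 8 mice) or macaques (Macaca mulatta; 12 mice). The labels used here give neither strain, age nor how the recipients were raised, and there was no group without a primate inoculum. RNA was read by TagSeq, which counts tags near the 3′ end of transcripts.

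Cortical interneurons release GABA, which Gad1 and Gad2 encode the enzymes to make and Slc32a1 the transporter to load into synaptic vesicles. Most cortical interneurons fall into classes that express Pvalb (fast-spiking basket and chandelier cells), Sst (largely dendrite-targeting cells), Vip (largely cells that inhibit other interneurons) or Lamp5 (neurogliaform and related cells). Npy, Cck and Reln overlap these classes. Cck is also expressed by many excitatory neurons of the cortex, so that its level in whole tissue does not come from interneurons alone. Which cells carried the RNA of any of the 10 genes was not measured. In tissue RNA, fewer cells of a type and less RNA per cell cannot be told apart.

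The sequences just upstream of the start sites are shown for the 3 genes that differed between donor groups (Slc32a1, Lamp5 and Cck) and for Sst, a classical cAMP-responsive gene. Each is the 250 bases before the RefSeq start, 5′ to 3′ on the gene's strand, in build GRCm38.p6; Lamp5 has more than 1 listed start and the first is shown. Capitals mark the cAMP response element TGACGTCA, to which CREB-family factors bind, and its core TGACG, also in reverse (CGTCA).
Slc32a1, chr2:158610508-158610757, plus strand: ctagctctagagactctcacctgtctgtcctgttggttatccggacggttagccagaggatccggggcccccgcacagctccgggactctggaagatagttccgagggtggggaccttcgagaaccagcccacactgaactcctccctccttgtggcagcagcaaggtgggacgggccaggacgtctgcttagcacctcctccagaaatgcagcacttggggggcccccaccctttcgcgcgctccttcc
Lamp5, chr2:136052089-136052338, plus strand: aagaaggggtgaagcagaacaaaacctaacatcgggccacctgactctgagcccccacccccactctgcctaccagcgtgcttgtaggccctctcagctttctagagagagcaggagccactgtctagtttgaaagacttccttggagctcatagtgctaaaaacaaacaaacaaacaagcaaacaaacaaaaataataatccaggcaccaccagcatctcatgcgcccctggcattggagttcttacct
Cck, chr9:121495695-121495944, minus strand: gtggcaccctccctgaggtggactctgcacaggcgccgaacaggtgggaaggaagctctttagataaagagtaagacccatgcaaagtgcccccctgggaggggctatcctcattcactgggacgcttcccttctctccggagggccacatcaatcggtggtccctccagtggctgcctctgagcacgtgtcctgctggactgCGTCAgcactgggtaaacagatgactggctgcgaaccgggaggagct
Sst, chr16:23890845-23891094, minus strand: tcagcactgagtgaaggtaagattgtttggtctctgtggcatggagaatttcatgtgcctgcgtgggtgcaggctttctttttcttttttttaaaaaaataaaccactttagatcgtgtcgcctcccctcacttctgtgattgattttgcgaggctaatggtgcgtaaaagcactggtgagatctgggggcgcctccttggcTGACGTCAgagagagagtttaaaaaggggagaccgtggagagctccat

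Over the 300 bases from 250 before to 50 after the start, the full element was present in Sst alone among the 10 genes, with its first base at position -48. It occurred in 588 of 32851 promoters of that length (1.79%). The core TGACG, searched on both strands and contained in the full element, occurred in Gad2 (-33), Vip (-79), Cck (-47) and Sst, and in 20.8% of all promoters. TATAAA, searched on both strands, occurred in Gad1 (-141) and Vip (-157, -147 and -30), and in 13.6% of all promoters. Slc32a1 and Lamp5 held none of the 3 motifs in this window.

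Libraries held 1204598 to 2089308 counts in human-microbiota mice, 1193113 to 1588716 in squirrel monkey-microbiota mice and 1035036 to 1673882 in macaque-microbiota mice, and the 10 genes together took 0.196% to 0.288% of a library. No batch mixed donors: human microbiota went into batches A (4 mice) and B (8), squirrel monkey microbiota into C (4) and D (4), and that of macaques into E (5) and F (7). Plate columns were likewise of 1 donor, so donor, batch and plate column cannot be told apart in any comparison of donors. Excitatory cortical markers were present in every group, with a summed level of 3052 to 4957 CPM (library-scaled counts) over 7 genes. Human replicate 7 stood apart: its summed level of 8 genes of striatal projection neurons, which are themselves GABAergic, was 639 CPM against 204 to 378 CPM in the other 31 mice. In that mouse Drd1 stood at 42.6 CPM (12.0 to 35.1 elsewhere) and Gpr6 at 12.1 CPM (0 to 3.78). Myelin genes also varied widely, from 651 to 10331 CPM summed over 8 genes, and 5 mice were highest (human replicates 1, 4 and 12, squirrel monkey replicates 1 and 8). Where leaving out human replicate 7 or the 5 mice high in myelin ended a call of a gene named here, the value without them is given.

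In human against macaque microbiota, 3 of the 10 markers differed: Slc32a1 was 1.37-fold and Lamp5 1.41-fold higher, and Cck was lower, at 0.816 times the macaque level. Over all genes, 8.01% were called in this comparison (1013 of 12651; edgeR quasi-likelihood test, Benjamini-Hochberg adjusted p under 0.05). The median log2 fold change of the 10 genes was -0.06, against 0.00 over all genes. The synthetic enzymes Gad1 and Gad2 and the class markers Pvalb, Sst and Vip did not pass. In squirrel monkey against macaque microbiota, 0 of 10 passed, against 0.64% of all genes, and 5 of 10 had an unadjusted p under 0.05, against 13.2% of all genes. Those 5 were Slc32a1 and Lamp5, with positive differences, and Cck, Vip and Reln, with negative ones. In human against squirrel monkey microbiota 0 of 10 passed, against 0.134% of all genes, and 0 of 10 had an unadjusted p under 0.05, against 10% of all genes. DESeq2 gave the same counts of calls in these 3 comparisons, whereas limma voom with sample weights called Cck and Lamp5 in squirrel monkey against macaque. The shares of all genes given here are from edgeR, and that of voom is not given. The comparisons share groups of mice and are not independent of each other.

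**Figure D1:**
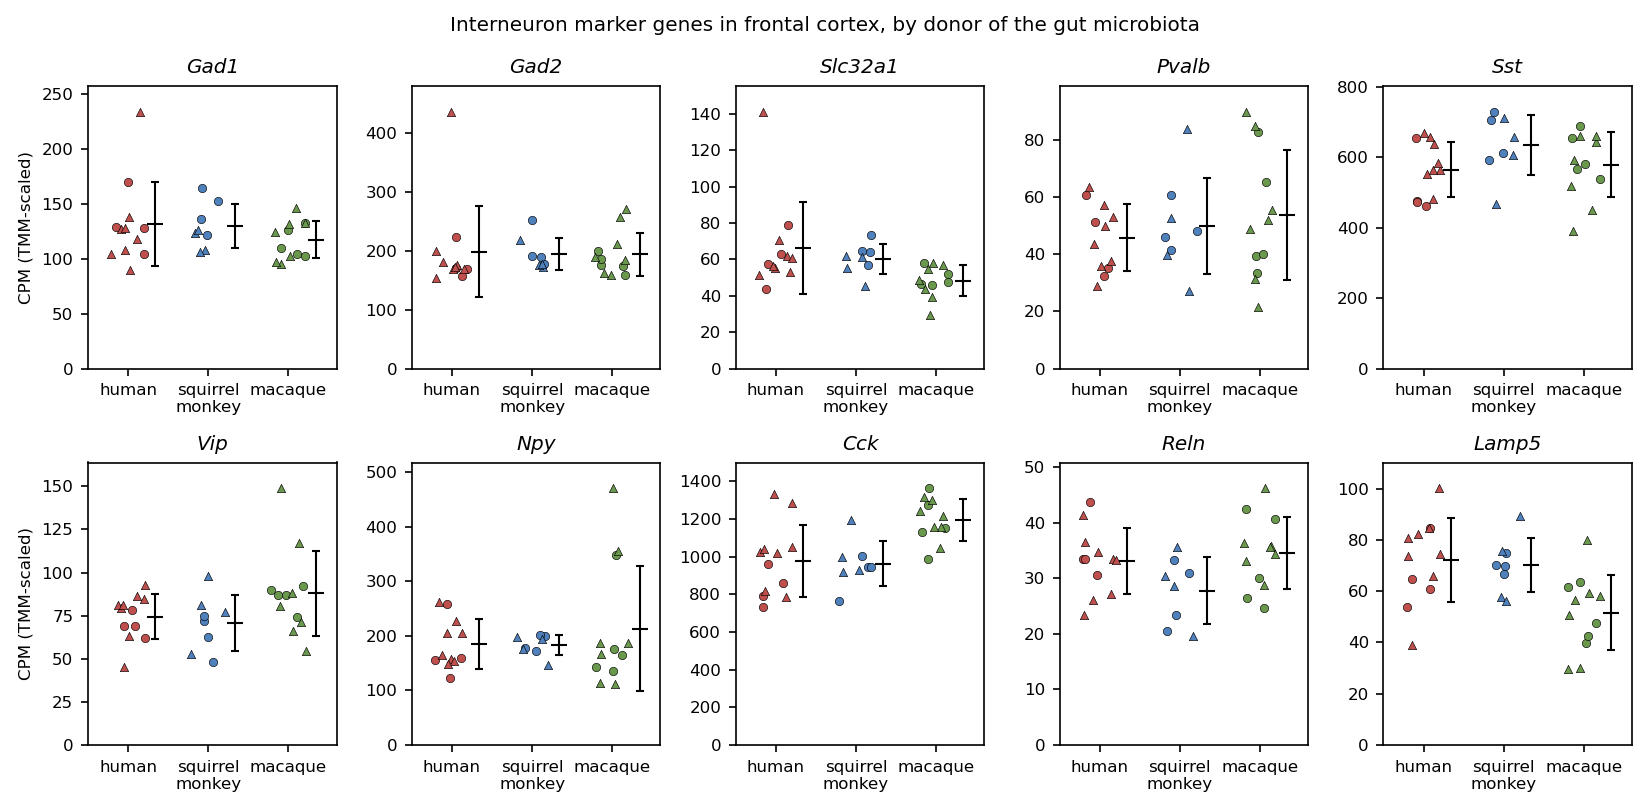
Level of each gene in each of the 32 mice (CPM, scaled by TMM factors) by donor of the microbiota; circles are batches A, C and E, triangles are batches B, D and F, and bars are the mean and SD over mice. Slc32a1 and Lamp5 lie lower and Cck lies higher in the macaque group, all groups overlap, and a single human-microbiota mouse stands high for Gad1, Gad2 and Slc32a1.

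Gad1 and Gad2 encode the forms of glutamate decarboxylase, which convert glutamate into GABA. Gad1 ranged from 89.4 to 234 CPM in human-microbiota mice (median 127), from 106 to 164 in squirrel monkey-microbiota mice (median 125) and from 95.4 to 146 in macaque-microbiota mice (median 117). Gad2 ranged from 154 to 436 CPM (median 172), from 173 to 252 (median 184) and from 158 to 271 (median 186). The groups overlapped for both genes, and the highest value of each came from human replicate 7. The log2 difference between human and macaque mice was 0.18 ± 0.11 SE for Gad1 (adjusted p = 0.355, edgeR) and 0.03 ± 0.13 SE for Gad2 (adjusted p = 0.913, edgeR). The 95% interval ran from -0.05 to 0.40 for Gad1 and from -0.22 to 0.29 for Gad2. Without human replicate 7 the human-macaque difference was 0.065 for Gad1 (adjusted p = 0.737, edgeR) and -0.14 for Gad2.

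Slc32a1, the vesicular GABA transporter, was the pan-GABAergic gene that differed. It ranged from 43.7 to 141 CPM in human-microbiota mice (median 59.2), from 45.6 to 73.7 in squirrel monkey-microbiota mice (median 61.6) and from 29.2 to 58.0 in macaque-microbiota mice (median 48.2). Of the human-microbiota mice 11 of 12 lay above the macaque median, and 0 of 12 macaque-microbiota mice lay above the human median, although the ranges overlapped. Human-microbiota mice averaged 66.2 ± 25.3 CPM and macaque-microbiota mice 48.4 ± 8.49 CPM (SD over 12 mice in either group). On the log2 scale the difference was 0.45 ± 0.13 SE (adjusted p = 0.0277, edgeR). The call rested on human replicate 7, at 141 CPM: without it the human mean was 59.4 ± 9.54 CPM (SD, n = 11), the log2 fold change 0.29 and the adjusted p 0.0598. Without the 5 mice of highest myelin score the log2 difference was 0.47 (adjusted p = 0.0463, edgeR). With the striatal marker score of each mouse as a covariate the log2 fold change was 0.15 (adjusted p = 0.493, edgeR), and with that covariate and without human replicate 7 it was 0.27 (adjusted p = 0.345, edgeR). The score itself was 0.16 ± 0.45 in human-microbiota and -0.16 ± 0.10 in macaque-microbiota mice (SD, n = 12 each). Human replicate 7 had a score of 1.54, and the other human-microbiota mice averaged 0.03 ± 0.10 (SD, n = 11). All 5 of its tested genes had positive human-macaque differences and 0 passed; the part of striatal RNA in the Slc32a1 difference beyond these fits was not tested. In squirrel monkey against macaque the difference was 0.31 ± 0.15 SE (adjusted p = 0.369, edgeR), with 7 of 8 mice above the macaque median.

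Within single libraries, the log2 ratio of Slc32a1 to Gad2 does not depend on library scaling. It was -1.58 ± 0.19 in human-microbiota mice (SD, n = 12), -1.68 ± 0.17 in squirrel monkey-microbiota mice (SD, n = 8) and -1.997 ± 0.25 in macaque-microbiota mice (SD, n = 12). Its batch means were -1.58 in A and B, -1.63 in C, -1.73 in D, -1.83 in E and -2.11 in F, so every macaque batch lay below every other batch. The ratio was added after the levels were seen and has no test.

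Pvalb encodes the calcium-binding protein of fast-spiking cells. It ranged from 28.9 to 63.4 CPM in human-microbiota mice (median 46.7), from 27.2 to 83.9 in squirrel monkey-microbiota mice (median 47.0) and from 21.4 to 89.9 in macaque-microbiota mice (median 50.4). The groups overlapped almost wholly. The human-macaque difference was -0.23 ± 0.18 SE on the log2 scale (adjusted p = 0.496, edgeR), with an interval from -0.60 to 0.14. The spread between mice of a batch was 37.5% of the mean, of which counting noise gave 9.71% of the variance.

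Sst encodes somatostatin, a peptide that dampens release and excitability. It ranged from 462 to 669 CPM in human-microbiota mice (median 564), from 468 to 729 in squirrel monkey-microbiota mice (median 634) and from 392 to 688 in macaque-microbiota mice (median 586). The human-macaque difference was -0.04 ± 0.08 SE (adjusted p = 0.843, edgeR) and the squirrel monkey-macaque difference 0.14 ± 0.09 SE (adjusted p = 0.569, edgeR). Its SE was among the smallest of the 10, and the human-macaque interval ran from -0.20 to 0.13.

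Vip encodes vasoactive intestinal peptide. It ranged from 45.5 to 92.9 CPM in human-microbiota mice (median 79.0), from 48.1 to 97.8 in squirrel monkey-microbiota mice (median 73.3) and from 54.6 to 149 in macaque-microbiota mice (median 87.1). Only 1 of 12 human-microbiota mice and 1 of 8 squirrel monkey-microbiota mice lay above the macaque median, yet the ranges overlapped. The differences from macaque were -0.23 ± 0.12 SE (adjusted p = 0.25, edgeR) and -0.30 ± 0.14 SE (adjusted p = 0.331, edgeR). Neither passed the threshold.

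Npy encodes neuropeptide Y, found in neurogliaform and some Sst cells. It ranged from 123 to 262 CPM in human-microbiota mice (median 163), from 147 to 202 in squirrel monkey-microbiota mice (median 186) and from 111 to 471 in macaque-microbiota mice (median 172). The macaque group spread widest, at 213 ± 114 CPM (SD, n = 12), and the squirrel monkey group least, at 183 ± 19.01 CPM (SD, n = 8). The human-macaque difference was -0.21 ± 0.18 SE (adjusted p = 0.518, edgeR), and the spread itself was not tested. It rested on few macaque-microbiota mice: without macaque replicate 12 it was -0.04 (adjusted p = 0.911, edgeR), without replicate 7 -0.117 and without replicate 4 -0.123.

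Cck encodes cholecystokinin, a peptide of a basket-cell class and of many excitatory neurons, and was lower in mice with human microbiota. It ranged from 733 to 1331 CPM in human-microbiota mice (median 990), from 763 to 1195 in squirrel monkey-microbiota mice (median 944) and from 988 to 1363 in macaque-microbiota mice (median 1186). Of the human-microbiota mice 2 of 12 lay above the macaque median, and 11 of 12 macaque-microbiota mice lay above the human median. Human-microbiota mice averaged 976 ± 192 CPM and macaque-microbiota mice 1195 ± 111 CPM (SD over 12 mice in either group). On the log2 scale the difference was -0.29 ± 0.08 SE (adjusted p = 0.0170, edgeR). Against macaque, squirrel monkey-microbiota mice stood at -0.31 ± 0.09 SE (adjusted p = 0.0895, edgeR), with 1 of 8 mice above the macaque median, and without squirrel monkey replicate 6 the adjusted p was 0.0434.

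Cck varied with markers of other cell types. Across the 32 mice, with batch means removed, its Pearson r was 0.57 with the excitatory neuron score, 0.53 with the upper-layer score and -0.49 with the myelin score, as a description over values that share libraries. The myelin list had 3 of 8 genes higher in human than in macaque mice and 0 lower, with a median log2 difference of 1.26 (Mog, Mal and Cldn11). Without human replicate 7 Cldn11 passed (adjusted p = 0.0446, edgeR), and Mog (0.0567) and Mal (0.0541) did not. Without the 5 mice high in myelin none of these genes passed: Mog stood at 0.13, Mal at 0.11 and Cldn11 at 0.13. Their adjusted p-values were then 0.857, 0.853 and 0.859 (edgeR). The 5 mice were picked by the score of this same list. Of 7 genes of the upper cortical layers 0 passed. Of these, 1 had a positive difference in human against macaque (median -0.25) and 1 in squirrel monkey against macaque (median -0.35). Of 8 genes of the deep layers 0 passed in either comparison. Positive differences there numbered 6 (median 0.11) and 8 (median 0.28) in the same order. The r of Cck with the deep-layer score was -0.41. With the 5 mice high in myelin left out, the Cck difference was -0.19 (adjusted p = 0.137, edgeR), and with the myelin score as a covariate it was -0.22 (adjusted p = 0.0489, edgeR). Without human replicate 7 it was -0.27 (adjusted p = 0.0366, edgeR). Without batch A it was -0.19 (adjusted p = 0.202, edgeR), and with the striatal score as a covariate -0.235 (adjusted p = 0.141, edgeR). Among the excitatory markers Neurod6, a transcription factor of cortical projection neurons, fell in human against macaque mice (-0.41 ± 0.12 SE, adjusted p = 0.0322, edgeR; 0.0628 without human replicate 7), while Slc17a7, the vesicular glutamate transporter, rose (0.25 ± 0.07 SE, adjusted p = 0.0163, edgeR). Neurod6 was also lower in squirrel monkey against macaque (-0.64, adjusted p = 0.0217, edgeR). Without the 5 mice high in myelin that difference was -0.66 and did not pass (adjusted p = 0.0660, edgeR). In A against B the Cck difference was -0.32 ± 0.11 SE (unadjusted p = 0.00712, adjusted p = 0.289, edgeR).

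Reln encodes reelin, an extracellular glycoprotein secreted by neurogliaform and other interneurons and by cells of layer 1. It was the gene with the fewest counts, 23 to 72 per mouse, and counting noise alone gave 55.3% of its variance between mice of a batch. It ranged from 23.4 to 43.7 CPM in human-microbiota mice (median 33.4), from 19.6 to 35.7 in squirrel monkey-microbiota mice (median 29.5) and from 24.6 to 46.2 in macaque-microbiota mice (median 35.05). The squirrel monkey-macaque difference was -0.31 ± 0.13 SE (unadjusted p = 0.0196, adjusted p = 0.272, edgeR), and the human-macaque difference -0.08 ± 0.11 SE (adjusted p = 0.715, edgeR). Neither passed the threshold.

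Lamp5 encodes a lysosome-associated membrane protein and is taken here as a marker of neurogliaform cells, although which cells carried its RNA was not measured. Lamp5 was higher in mice with human microbiota. It ranged from 38.9 to 100.2 CPM in human-microbiota mice (median 74.1), from 56.1 to 89.2 in squirrel monkey-microbiota mice (median 70.0) and from 29.6 to 79.9 in macaque-microbiota mice (median 53.6). Of the human-microbiota mice 11 of 12 lay above the macaque median, as did 8 of 8 squirrel monkey-microbiota mice, while 1 of 12 macaque-microbiota mice lay above the human median. Human-microbiota mice averaged 72.1 ± 16.3 CPM and macaque-microbiota mice 51.6 ± 14.6 CPM (SD over 12 mice in either group). On the log2 scale the difference was 0.49 ± 0.13 SE (adjusted p = 0.0131, edgeR). It passed with each mouse left out in turn (adjusted p up to 0.0257, edgeR) and without the 5 mice of highest myelin score (0.63, adjusted p = 0.001, edgeR). It did not pass with the striatal score as a covariate (0.47, adjusted p = 0.0589, edgeR), nor without batch B (0.37, adjusted p = 0.168), batch E (0.48, adjusted p = 0.0937) or batch F (0.51, adjusted p = 0.0695). Over all mice, its correlation with each of the marker scores of other cell types was at most 0.25 in size. Without human replicate 7 its r was 0.29 with the upper-layer score and -0.26 with the myelin score. With the pan-GABAergic score r was -0.15 over all mice and -0.41 without that mouse. In squirrel monkey against macaque the difference was 0.45 ± 0.15 SE (adjusted p = 0.129, edgeR).

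**Figure D2:**
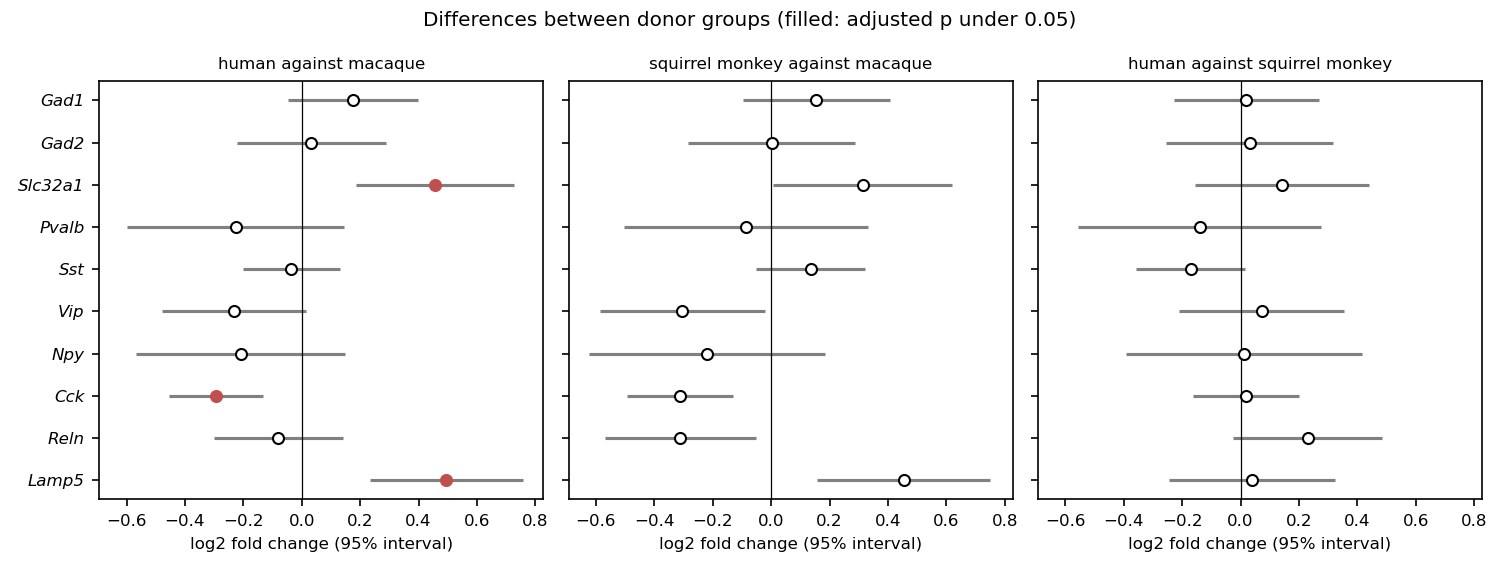
Log2 fold change of each gene with its 95% interval in the 3 comparisons of donors (edgeR; filled points have an adjusted p under 0.05). Slc32a1, Cck and Lamp5 are filled in human against macaque, and no point is filled in the other panels.

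**Figure D3:**
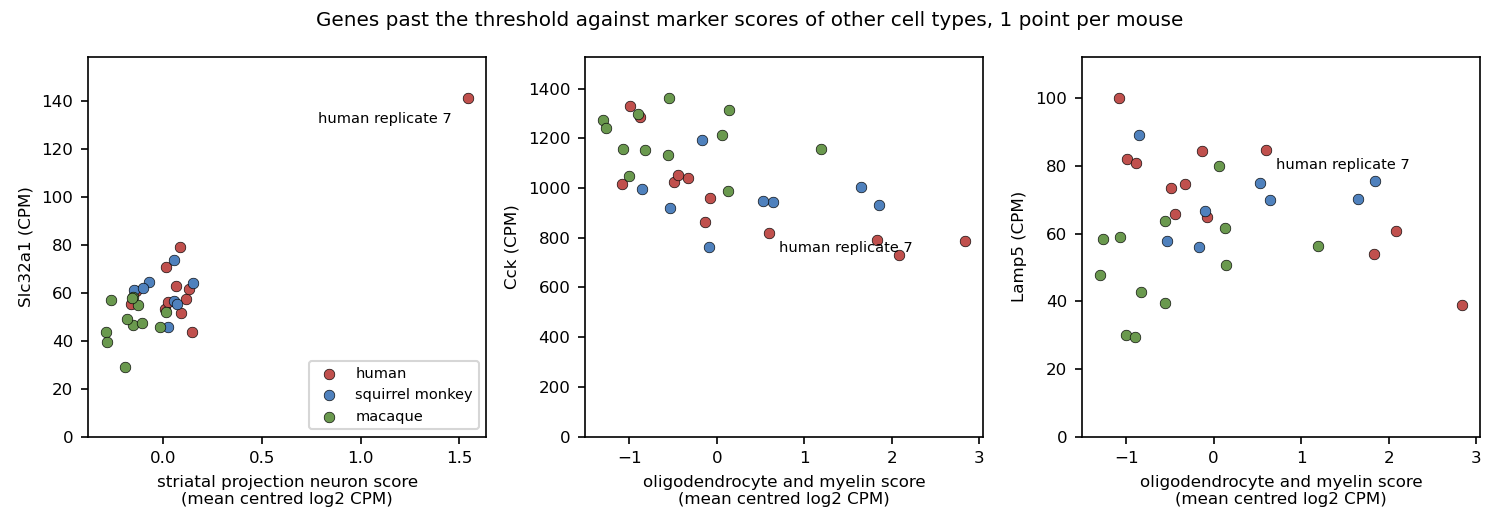
Level of Slc32a1 (CPM) against the striatal marker score, and of Cck and Lamp5 against the myelin marker score, with 1 point per mouse; a score is the mean over the list of log2 CPM centred on each gene's mean. Human replicate 7 lies apart in the first panel at 141 CPM. Among mice of high myelin score, human replicates 1, 4 and 12 are low for Cck (733, 792 and 786 CPM; human median 990). Squirrel monkey replicates 1 and 8, also of high score, stand at 1006 and 930 CPM (group median 944).

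An F-test over the 3 donor groups called Cck (adjusted p = 0.0196) and Lamp5 (adjusted p = 0.0273) by edgeR, against 6.15% of all genes, and Slc32a1 did not pass (adjusted p = 0.0746, edgeR). Without macaque replicate 4, 5, 7 or 12, Lamp5 no longer passed that test (adjusted p up to 0.0522, edgeR), and without human replicate 3 or 12 Slc32a1 did (adjusted p down to 0.0452, edgeR). Between batches of 1 donor 0 of 10 genes were called by edgeR, DESeq2 or limma voom. Of all genes 0.0237% were called by edgeR in A against B, 0% in C against D and 0% in E against F. At an unadjusted p under 0.05 there was 1 of 10 in A against B (Cck), 0 in C against D and 0 in E against F, against 11.6%, 6.98% and 3.15% of all genes. The batch means of Lamp5 were 66.0 ± 13.1 CPM in A (SD, n = 4), 75.1 ± 17.7 in B (n = 8), 70.4 ± 3.37 in C (n = 4), 69.7 ± 15.7 in D (n = 4), 51.1 ± 11.02 in E (n = 5) and 52.0 ± 17.7 in F (n = 7). The batch means of Slc32a1 were 60.8, 68.9, 64.7, 56.0, 49.98 and 47.3 CPM in the same order, and those of Cck 837, 1045, 914, 1011, 1181 and 1204 CPM. The macaque batch means lay on 1 side of the other 4 batch means for these 3 genes, and also for Pvalb, Vip and Npy, which did not pass. The share of all genes with this order is not given here, so the order is a description only.

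Other genes of the same cells and pathways were counted from 9 lists of 94 genes, of which 76 were tested. In human against macaque 4 were higher and 2 lower (7.89% called, near the 8.01% of all genes), and in squirrel monkey against macaque 2 were higher and 2 lower (5.26%, against 0.64%); in human against squirrel monkey 0 were called (edgeR; 0.134% of all genes). Genes of Lamp5 and neurogliaform cells had 2 of 8 higher and 0 lower in human against macaque, with positive differences in 7 of 8 and a median of 0.38. Cplx3, a complexin, rose from 6.49 ± 3.24 to 12.0 ± 5.55 CPM (SD over 12 mice in either group), by 0.90 ± 0.26 SE on the log2 scale (adjusted p = 0.0234, edgeR). Its difference was 0.77 without human replicate 7 (adjusted p = 0.0619) and 0.72 without the 5 mice of highest myelin score (adjusted p = 0.110, edgeR). Lsp1, an actin-binding protein whose gene overlaps Prr33 on the other strand, rose from 4.44 ± 2.48 to 8.35 ± 3.23 CPM (SD over 12 mice in either group; 0.88 ± 0.26 SE, adjusted p = 0.0290, edgeR). Cplx3 and Lsp1 stood at lower levels than Reln, the marker with the fewest counts, and their counting noise is not given here. Ndnf, a secreted neurotrophic factor that marks layer 1 neurogliaform cells, had a difference of 0.52 (adjusted p = 0.181, edgeR).

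Among 7 tested genes of GABA uptake and breakdown, Slc6a11, the GABA transporter GAT-3 of astrocytes, rose from 40.1 ± 6.95 to 60.3 ± 11.3 CPM in human against macaque (SD over 12 mice in either group; 0.59 ± 0.10 SE, adjusted p = 0.000196, edgeR). Among 5 tested genes of Vip and Cck cells, Cnr1, the cannabinoid receptor of Cck basket-cell terminals, fell from 178 ± 24.9 to 133 ± 19.9 CPM (SD over 12 mice in either group; -0.42 ± 0.07 SE, adjusted p = 0.000176, edgeR). Cnr1 was also lower in squirrel monkey against macaque (-0.33 ± 0.08 SE, adjusted p = 0.0497, edgeR). That difference did not pass without human replicate 7 (-0.33, adjusted p = 0.0514, edgeR), a mouse of neither group that enters only through the shared fit. The same difference did not pass without the 5 mice high in myelin (-0.33, adjusted p = 0.148, edgeR). Penk, which encodes enkephalins and is abundant in striatal neurons, was higher in human mice (1.03 ± 0.30 SE, adjusted p = 0.0247, edgeR), with a median of 28.4 CPM and a highest value of 210 CPM, against a macaque median of 21.3. Without human replicate 7 the Penk difference was 0.42 (adjusted p = 0.0724, edgeR). Crkl, an adaptor downstream of reelin, fell by 0.30 ± 0.10 SE (adjusted p = 0.0411, edgeR), 1 of 8 genes of the reelin list. Its difference was -0.27 without human replicate 7 (adjusted p = 0.0812) and -0.31 without the 5 mice highest in myelin genes (adjusted p = 0.0605, edgeR). Slc6a11, Slc17a7, Lsp1 and, in human against macaque, Cnr1 passed both without human replicate 7 and without the 5 mice high in myelin (adjusted p up to 0.0321, for Lsp1; edgeR).

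In squirrel monkey against macaque, Cox6a2, a cytochrome oxidase subunit of parvalbumin cells, rose from 5.29 ± 2.38 to 11.7 ± 3.05 CPM (SD, n = 12 and 8; 1.15 ± 0.24 SE, adjusted p = 0.0132, edgeR), 1 of 9 tested genes of its list. Of 9 tested genes of Sst cells, Cort, which encodes the related peptide cortistatin, rose from 10.3 ± 4.57 to 19.9 ± 4.43 CPM (SD, n = 12 and 8; 0.98 ± 0.23 SE, adjusted p = 0.0254, edgeR). Grin3a, an NMDA receptor subunit, fell by 0.48 ± 0.12 SE (adjusted p = 0.0413, edgeR). Without the 5 mice of highest myelin score, squirrel monkey replicates 1 and 8 among them, the adjusted p was 0.0862 for Cox6a2, 0.0730 for Cort and 0.218 for Grin3a (edgeR). The log2 differences were then 1.07, 0.99 and -0.41. Cox6a2 and Cort stood at lower levels than Reln, and their counting noise is not given here. Of 15 interneuron transcription factors, 8 receptors of the neuropeptides and 7 genes of the perineuronal net tested, 0 were called by edgeR in any comparison of donors.

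The 10 genes were also compared with each other across the 32 mice, with batch means removed, in 45 pairs (permutation of mice within batches, two-sided, 100000 resamples, adjusted over the 45). By Pearson r 7 pairs passed, and by Spearman rho 3. Pairs of other genes were not tested, and the values share libraries and dissection, so these counts are not particular to the markers. Gad2 with Slc32a1 had r = 0.82 (rho = 0.67), Gad1 with Pvalb r = 0.58 (rho = 0.75), and Gad2 with Npy r = 0.65 (rho = 0.60). The adjusted permutation p-values of these r were 0.0039, 0.0027 and 0.00045, and without the 2 mice farthest in the first gene r was 0.62, 0.71 and 0.72. The other pairs that passed by r were Gad1 with Gad2 (0.69), Gad1 with Npy (0.45), Slc32a1 with Npy (0.52) and Slc32a1 with Vip (-0.58). Without human replicate 7 only Gad1 with Pvalb (r = 0.69) and Gad2 with Npy (r = 0.78) passed by r, and Gad1 with Gad2 stood at 0.38, Slc32a1 with Vip at -0.43 and Gad2 with Slc32a1 at 0.61. By rho, Gad1 with Pvalb, Gad2 with Npy and Gad2 with Slc32a1 (rho = 0.62, adjusted permutation p = 0.0291) passed without that mouse.

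**Figure D4:**
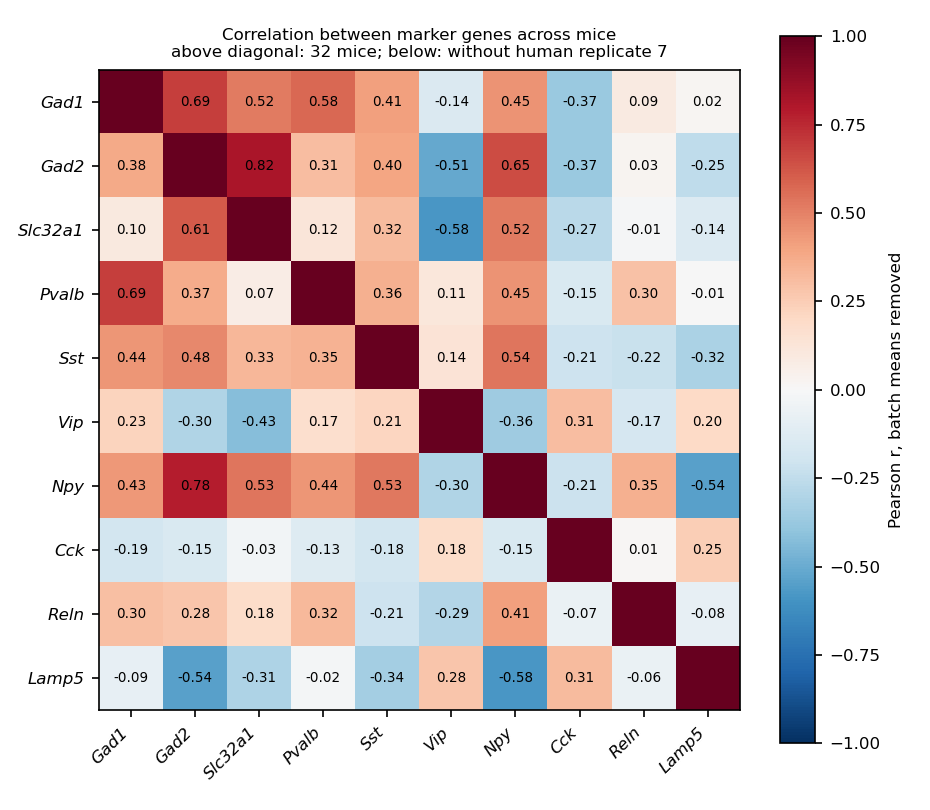
Pearson r between the genes over mice after batch means were removed, above the diagonal for 32 mice and below it for the mice without human replicate 7. Gad1 with Pvalb (0.58 and 0.69) and Gad2 with Npy (0.65 and 0.78) are high on both sides of the diagonal, whereas Gad1 with Gad2 goes from 0.69 to 0.38.

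Against the marker scores, Gad1 had r = 0.64 with the striatal score over all mice and 0.01 without human replicate 7. The same pair of values was 0.76 and 0.13 for Gad2, and 0.65 and -0.10 for Slc32a1. Without that mouse Gad1 had r = -0.60 with the upper-layer score and 0.64 with the astrocyte score. Sst and Pvalb went with the deep-layer score (0.58 and 0.50 over all mice). These values share library, depth and dissection and are given as descriptions.

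By the same measure over 12596 genes with a mean of at least 5 CPM, the genes most like Pvalb were the respiratory chain genes Cox8a, Ndufb11 and Cox6a1 (r = 0.76, 0.76 and 0.75). Those most like Vip were Npas4 (0.70), Tceal8 (0.68) and Ier2 (0.67), the first and the last being activity-induced genes. Those most like Gad1 were Pcp4l1 (0.86), Cxcl14 (0.83) and Fndc5 (0.78), and those most like Gad2 were Zcchc12 (0.86), Slc32a1 (0.82) and Pcp4l1 (0.75). Slc32a1 was most like Gad2, Penk (0.73) and Klhl13 (0.71), and without human replicate 7 these r were 0.61, 0.37 and 0.50. Without that mouse the r of Gad1 with its 3 genes were 0.76, 0.70 and 0.70, and those of Gad2 were 0.72, 0.61 and 0.52. Npy was most like Fcor (0.79), Ache (0.77) and Tpm1 (0.77), Sst most like Nfe2l3 (0.69), Ccn1 (0.68) and Lgals1 (0.67), and Cck most like Trim44 (0.74), Gsk3a (0.72) and Brd9 (0.69). Reln was most like Wdr5 (0.64), Mpeg1 (0.62) and Kptn (0.62), and Lamp5 most like Sf3b1 (0.69), Ankrd63 (0.68) and Ccne1 (0.67). All these genes were picked for the highest r among 12596, so a high r follows from the picking and was not tested.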

How the data were processed

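The authors deposited 1 table of raw counts per Ensembl gene (build GRCm39, per the submitters' processing notes); the aligner, annotation, strand use and duplicate handling: not given in the sources used here. Values of Gad1, Slc32a1, Reln, Slc6a11, Cox6a2, Penk, Lsp1, Crkl and Mog are therefore uncertain. Each of them overlaps a gene on the other strand (GENCODE M21). Gad2, Reln, Grin3a and Slc17a7 overlap a gene on the same strand, so their values are uncertain too. The 3 count columns that match no sample here entered no step, and 76 rows without a symbol held 0.031% of counts. Counts per mouse numbered 1035036 to 2089308; CPM is scaled from these.

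Genes were filtered with filterByExpr (minimum count 10, minimum total 15), scaled by TMM and tested with edgeR 4.0.16 (R 4.3.3) in 1 fit of all 32 mice with donor as the only term; a second fit had 1 level per batch. P-values were adjusted over all 12651 genes by Benjamini-Hochberg, threshold 0.05. The labels do not say whether mice of a batch shared a cage or an inoculum, so p-values measure the spread between these mice. Chi-square per degree of freedom between mice of the same donor was 1.41 to 7.24 over 160 pairs, so no mouse was counted as a copy. DESeq2 1.42.0 and limma 3.58.1 were alternatives. The fits were tested on simulated counts. Correlations used log2 CPM with a prior count of 2.

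The 10 genes and the lists were chosen with earlier results of these data known. By rule all 10 genes are named, up to 4 genes of smallest p past the threshold per list, and the 3 genes most like each. Ndnf, the core motif, TATAAA and the ratio of Slc32a1 to Gad2 were added after values were seen. Promoters are from RefSeq (10 of 10 genes matched); protein sequences were not used here.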

Additional observations from a re-analysis of the deposited data

Results flagged for a closer look

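In 7 of 70 sets checked (each gene in each batch and in the squirrel monkey group), the highest or lowest mouse lay far from the others relative to the range; chance flags about 1 in 20 sets. Human replicate 7 was such a mouse in batch B for Gad1 (234 CPM, next 138), Gad2 (436 CPM, next 199.7) and Slc32a1 (141 CPM, next 70.9). These values are 1.84, 2.56 and 2.45 times the median of the other human-microbiota mice, in the library with the highest striatal marker sum, and the part of striatal tissue in them was not tested. Squirrel monkey replicate 5 was high for Gad2 in batch D (218 CPM, next 178), human replicate 1 for Sst in batch A (653 CPM, next 476) and macaque replicate 4 for Npy in batch E (349 CPM, next 177). Macaque replicate 1 was low for Vip in batch E (73.9 CPM, next 87.1).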

How the results depend on the processing

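Of the 3 genes called in human against macaque, 1 was called with the library total as a covariate (Lamp5), 1 without batch B (Cck), and 0 with the striatal covariate, without batch E or without batch F. Of alternatives added after the data were seen, 0 were called with the striatal covariate and without human replicate 7, and 1 (Lamp5) without that mouse and the 5 mice of highest myelin score. In squirrel monkey against macaque, 0 were called, against 2 by voom with sample weights (Cck and Lamp5) and 1 each in the fit of those groups only (Cck), with counts summed per batch (Lamp5) and without batch B (Cck); with 1 mouse left out the count was 0 to 1. The any-donor count of 2 was 1 to 3 with 1 mouse left out. The share of all genes called under each of these settings is not given here, so these counts describe the markers only. The 7 correlated pairs became 3 by Spearman rho and, by Pearson r, 2 without human replicate 7. Slc32a1, Cck and Lamp5 kept their direction in human against macaque in all settings run, at 0.15 to 0.52, -0.52 to -0.15 and 0.37 to 0.63. The cause of these changes was not tested. The remaining sign changes concern differences that passed in no setting where the sign turned. In human against macaque the sign turned with the striatal covariate for Gad1 (-0.048) and Gad2 (-0.284), with voom with batch as a random effect for Gad2 (-0.011), with the library total as a covariate for Gad2 (-0.079) and Sst (0.014), with the myelin covariate for Gad2 (-0.006), with the excitatory covariate for Gad2 (-0.094), without batch B for Gad2 (-0.122) and Reln (0.005), without batch E for Gad2 (-0.05) and Sst (0.011), without batch A for Sst (0.028). In squirrel monkey against macaque the sign turned with the excitatory covariate for Gad1 (-0.03) and Gad2 (-0.176), with no filter for Gad2 (-0.005), with the myelin covariate for Gad2 (-0.04), with the striatal covariate for Gad2 (-0.128), without batch C for Gad2 (-0.054), without batch E for Gad2 (-0.077), with voom with sample weights for Pvalb (0.015) and Npy (0.004). In human against squirrel monkey the sign turned with voom with sample weights for Gad1 (-0.054), Gad2 (-0.047) and Npy (-0.048), with voom with batch as a random effect for Gad1 (-0.012), Gad2 (-0.024) and Npy (-0.021), with the striatal covariate for Gad1 (-0.107), Gad2 (-0.156), Slc32a1 (-0.038) and Npy (-0.054), without batch D for Gad1 (-0.125), Gad2 (-0.031) and Npy (-0.025), with the library total as a covariate for Gad2 (-0.082), Slc32a1 (-0.02) and Npy (-0.038), without batch B for Gad2 (-0.125), Vip (-0.034), Npy (-0.083), Cck (-0.208) and Lamp5 (-0.086), without batch C for Vip (-0.053) and Cck (-0.057), with counts summed per batch for Npy (-0.017) and Cck (-0.033), with the myelin covariate for Cck (-0.012), with the excitatory covariate for Cck (-0.042). In batch C against D the sign turned with library totals in place of TMM for Lamp5 (-0.015). In batch E against F the sign turned with voom with sample weights for Vip (0.031). With 1 mouse left out at a time, log2 fold changes in human against macaque spanned -0.138 to 0.087 for Gad2. With 1 mouse left out at a time, log2 fold changes in squirrel monkey against macaque spanned -0.06 to 0.058 for Gad2 and -0.236 to 0.007 for Pvalb. With 1 mouse left out at a time, log2 fold changes in human against squirrel monkey spanned -0.093 to 0.072 for Gad1, -0.144 to 0.092 for Gad2, -0.028 to 0.188 for Slc32a1, -0.223 to 0.011 for Pvalb, -0.048 to 0.052 for Npy, -0.029 to 0.071 for Cck and -0.01 to 0.099 for Lamp5. With 1 mouse left out at a time, log2 fold changes in batch A against B spanned -0.129 to 0.195 for Gad1, -0.337 to 0.039 for Gad2, -0.334 to 0.064 for Slc32a1, -0.24 to 0.086 for Pvalb and -0.378 to 0.005 for Npy. With 1 mouse left out at a time, log2 fold changes in batch C against D spanned -0.009 to 0.205 for Gad2, -0.275 to 0.264 for Pvalb, -0.005 to 0.19 for Sst, -0.019 to 0.119 for Npy, -0.225 to 0.026 for Reln and -0.085 to 0.14 for Lamp5. With 1 mouse left out at a time, log2 fold changes in batch E against F spanned -0.09 to 0.018 for Gad1, -0.006 to 0.122 for Slc32a1, -0.28 to 0.121 for Pvalb, -0.134 to 0.113 for Vip, -0.559 to 0.049 for Npy, -0.083 to 0.031 for Cck and -0.132 to 0.098 for Lamp5. No paired analysis was possible because the labels give no replicate numbers; the numbers used here only name the mice of a group in accession order and tie none of them together. Counting noise took the largest share of the variance in Reln.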
